A study of Homo sapiens with 6 samples.

Results

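The genes described here are 10 members of the epidermal growth factor (EGF) signalling family, of 62700 genes in the count table. They comprise 7 ligand genes (NRG1, AREG, EREG, HBEGF, TGFA, BTC and EPGN) and 3 receptor genes (EGFR, ERBB2 and ERBB3), and are taken as a family by symbol. No measured value enters that rule, but the family was picked for description with earlier results of these data known. Each symbol matched 1 Ensembl gene ID, and 9 of the 10 had enough reads to be tested; EREG did not. RNA was sequenced from KYSE510, an established line of squamous carcinoma cells of the human oesophagus, cultured with fetal bovine serum. The shRNH1 group held 3 libraries of cells with an shRNA against RNH1, whose genotype is given as an RNH1 knockdown. The shControl group held 3 libraries of cells with a control shRNA, whose genotype is given as WT. The design text presents the knockdown as a model of induced R-loops, structures of an RNA:DNA hybrid and a displaced DNA strand. The sources used here do not say which shRNA sequence and vector were used, when cells were harvested, or whether they were a clone or a pool.

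EGF family ligands are made as membrane proteins and released by cleavage at the cell surface. AREG, TGFA and EPGN bind EGFR, HBEGF, EREG and BTC bind EGFR and ERBB4, and the neuregulins bind ERBB3 or ERBB4. Ligand binding lets the receptors pair. ERBB2 has no known ligand of its own and ERBB3 has little kinase activity, so both work in pairs with other ERBB receptors. The activated pairs feed the RAS, RAF, MEK and ERK cascade and the PI3 kinase and AKT pathway. In squamous epithelium EGFR drives proliferation, and its gene is often amplified or highly expressed in oesophageal squamous carcinoma.

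Library totals were 31394687 to 33421217 counts in shRNH1 and 40225486 to 41103220 counts in shControl. RNASEH1 encodes ribonuclease H1, an enzyme that degrades the RNA of RNA:DNA hybrids. It had 251, 247 and 232 counts in shRNH1 and 1357, 1344 and 1015 counts in shControl. Its normalised level was 22.6% of that in shControl (log2 fold change -2.14, adjusted p = 1.61e-13 by edgeR's quasi-likelihood test). The gene whose approved symbol is RNH1, which encodes a ribonuclease inhibitor, did not pass the test (log2 fold change -0.19, adjusted p = 0.221 by edgeR's quasi-likelihood test). The transcript called lower in the knockdown libraries was thus that of RNASEH1, not that of RNH1. Of 14 squamous and basal epithelial markers, all 14 were at a testable level, and 6 were called higher and 5 lower in shRNH1, against 15.3% higher and 12.3% lower among all genes tested. Their median log2 fold change was -0.001. Their summed level was 3028 to 3256 CPM (counts scaled to a common library size) in shRNH1 and 3448 to 4280 CPM in shControl. The integrin gene ITGB4, at 1319 ± 111 CPM in shRNH1 and 1951 ± 263 CPM in shControl (SD, n = 3 each), made up most of the difference in that sum. The 5 lower were KRT6A (log2 fold change -2.13), KRT14 (-1.40), KRT5 (-1.33), ITGB4 (-0.57) and SFN (-0.37). The 6 higher were PKP1 (10, 21 and 16 counts in shRNH1 against 2, 1 and 0 counts in shControl), SOX2 (log2 fold change 2.68), DSC3 (1.11), TRIM29 (0.55), PERP (0.54) and CDH3 (0.26). The squamous lineage genes TP63 (-0.02) and KRT17 (0.02) did not pass, nor did DSG3 (-0.08). The fibroblast markers COL1A2, DCN and FAP and the leukocyte marker MS4A1 were listed at 0 in every library, as was the endothelial marker KDR. Over the whole lists, 4 of 10 fibroblast, 3 of 10 leukocyte and 6 of 8 endothelial markers were testable. Called were 1 fibroblast marker higher and 2 lower (75% of those tested), 1 leukocyte marker higher (33.3%) and 3 endothelial markers higher (50%). Among all genes tested 27.6% were called. The summed levels of these lists, in that order, were 118 to 141, 8.25 to 10.3 and 313 to 359 CPM in shRNH1. In shControl they were 89.7 to 100.3, 5.99 to 7.60 and 248 to 296 CPM. Their part in the results below was not tested.

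Of the 9 members tested, 4 were lower and 2 were higher in shRNH1, and 3 were not called (edgeR's quasi-likelihood test, Benjamini-Hochberg adjusted p under 0.05 over 19682 genes). The ligand genes NRG1, AREG, HBEGF and TGFA fell. The ligand gene EPGN and the receptor gene ERBB3 rose. BTC, EGFR and ERBB2 did not pass. Among all genes tested 12.3% were called lower and 15.3% higher, 27.6% in all. NRG1, AREG and ERBB3 passed with a log2 fold change of at least 1 in either direction, as did 6.27% of all genes tested. DESeq2 called 2 members higher and 5 lower, EGFR being the addition, and 23.8% of the genes it tested. The median log2 fold change was -0.21 over the 9 members and 0.016 over all genes tested. The groups did not overlap in normalised CPM for 8 of the 9, against 40.0% of all genes tested. In bulk RNA, fewer cells that express a gene and less of its RNA per cell cannot be told apart.

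**Figure D1:**
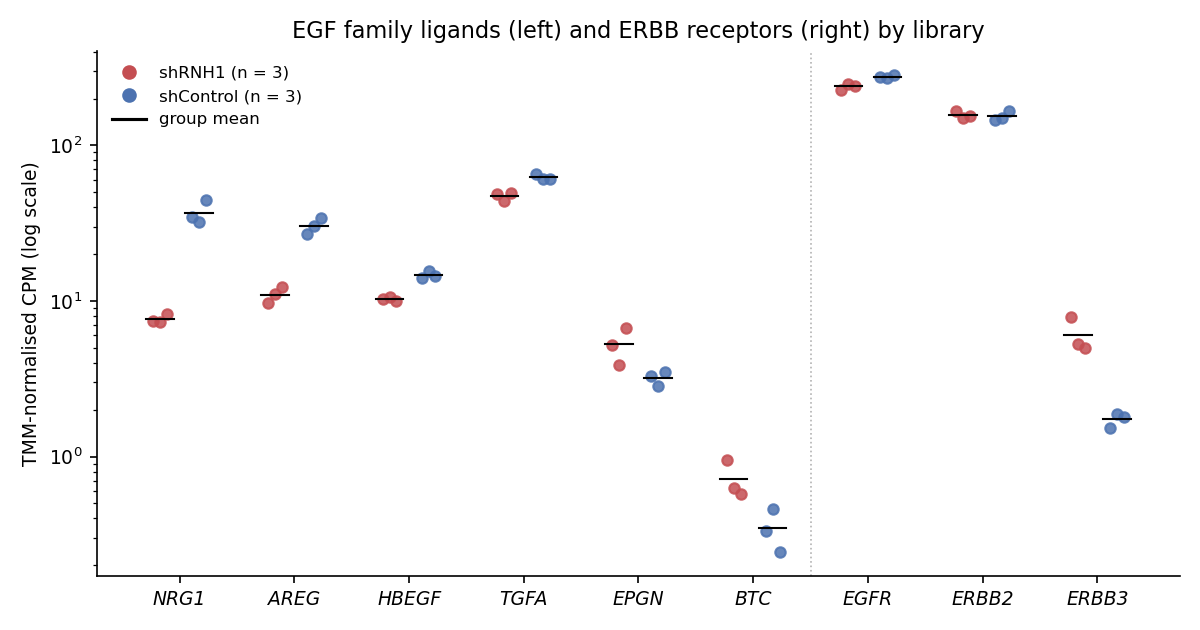
Normalised CPM (log axis) of the 9 tested members in each library, 3 shRNH1 points left of 3 shControl points for each gene, with black bars at the group means. NRG1 and AREG in shRNH1 lie far below their shControl points and ERBB3 lies above them, while the ERBB2 points overlap.

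The ligands share a fold with 6 cysteines, which form the EGF-like domain that touches the receptor, and the coding stretch from the first to the last of them shows what the family has in common. The stretches were read from the longest matching GENCODE 29 coding sequence of each gene, 5′ to 3′ on the coding strand, with the cysteine codons in capitals. The neuregulin genes NRG2 and NRG4, which are not among the 10, are shown beside the 6 ligands whose sequence is given. No sequence of NRG1 is shown.
AREG: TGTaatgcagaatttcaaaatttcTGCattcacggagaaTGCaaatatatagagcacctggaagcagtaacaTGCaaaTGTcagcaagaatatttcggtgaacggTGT
HBEGF: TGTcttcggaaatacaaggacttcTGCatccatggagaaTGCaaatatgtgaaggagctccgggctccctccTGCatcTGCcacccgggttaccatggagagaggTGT
TGFA: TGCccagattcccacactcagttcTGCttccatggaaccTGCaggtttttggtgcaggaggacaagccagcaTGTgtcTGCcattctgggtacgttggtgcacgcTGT
EPGN: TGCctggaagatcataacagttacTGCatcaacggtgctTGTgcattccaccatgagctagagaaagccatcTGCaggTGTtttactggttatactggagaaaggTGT
BTC: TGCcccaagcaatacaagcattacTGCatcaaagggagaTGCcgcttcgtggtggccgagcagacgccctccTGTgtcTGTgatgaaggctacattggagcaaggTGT
EREG: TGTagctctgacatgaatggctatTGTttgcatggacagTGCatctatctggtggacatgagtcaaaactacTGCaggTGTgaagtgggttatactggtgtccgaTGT
NRG2: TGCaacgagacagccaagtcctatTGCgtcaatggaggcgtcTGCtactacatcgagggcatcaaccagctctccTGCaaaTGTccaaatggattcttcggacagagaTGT
NRG4: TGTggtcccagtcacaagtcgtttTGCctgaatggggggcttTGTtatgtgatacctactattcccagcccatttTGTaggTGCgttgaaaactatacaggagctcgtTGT
The stretches were found by a search that fixed 7 residues between the first pair of cysteines and 1 and 8 residues in the last pair of gaps, so only the second and the third gap could differ. AREG, HBEGF, TGFA, EPGN, BTC and EREG had 4 and 10 residues in those gaps, in a stretch of 108 bases. NRG2 and NRG4 had 5 and 10 residues, in 111 bases. Genes with the same spacing were found among those that fell (AREG, HBEGF and TGFA) and among those that rose (EPGN).

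NRG1 encodes neuregulin 1, a ligand of ERBB3 and ERBB4 (ENSG00000157168, GRCh38 chromosome 8, 31639386 to 32767959, plus strand). It had 253, 258 and 273 counts in shRNH1 libraries, against 1340, 1323 and 1630 counts in shControl libraries. Normalised to library size these were 7.46, 7.35 and 8.28 CPM in shRNH1 and 34.4, 32.0 and 44.2 CPM in shControl. Every shRNH1 library lay below every shControl library, and the 3 shRNH1 values lay closer together than the 3 shControl values. The mean was 7.69 ± 0.506 CPM in shRNH1 and 36.9 ± 6.48 CPM in shControl (SD, n = 3 each). The log2 fold change came to -2.26 (SE 0.124; adjusted p = 2.01e-13 by edgeR's quasi-likelihood test), or 20.9% of the control level (95% interval of the fold 0.175 to 0.249). NRG1 took the 39th lowest log2 fold change of the 19682 genes tested. The gene has several promoters and splice forms, which a count per gene does not separate.

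AREG encodes amphiregulin, an EGFR ligand of epithelia (ENSG00000109321, chromosome 4, 74445134 to 74455009, plus strand). Its counts were 327, 388 and 406 in shRNH1, against 1056, 1249 and 1256 in shControl, or 9.64, 11.1 and 12.3 CPM in shRNH1 and 27.1, 30.2 and 34.1 CPM in shControl. The highest shRNH1 value stood below the lowest shControl value by more than either group's own range. The log2 fold change came to -1.47 (SE 0.116; adjusted p = 2.35e-10, same test), which is 2.77-fold lower (95% interval 2.35 to 3.27).

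HBEGF, the heparin-binding ligand (ENSG00000113070, chromosome 5, 140332843 to 140346631, minus strand), had 351, 371 and 328 counts in shRNH1 and 546, 642 and 537 counts in shControl. Its level was 10.3 ± 0.316 CPM in shRNH1 and 14.7 ± 0.762 CPM in shControl (SD, n = 3 each). The groups did not overlap, at 9.94 to 10.6 CPM in shRNH1 and 14.0 to 15.5 CPM in shControl. The fall was 1.43-fold (log2 fold change -0.52, SE 0.113; adjusted p = 9.52e-04 by edgeR's quasi-likelihood test).

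TGFA, transforming growth factor alpha (ENSG00000163235, chromosome 2, 70447280 to 70554193, minus strand), had 1648, 1533 and 1634 counts in shRNH1 and 2543, 2506 and 2240 counts in shControl. Its level was 47.3 ± 3.16 CPM in shRNH1 and 62.2 ± 2.67 CPM in shControl (SD, n = 3 each), again with no overlap. The fall was 1.32-fold (log2 fold change -0.40, SE 0.0927; adjusted p = 0.0018 by edgeR's quasi-likelihood test), smaller than that of NRG1 or AREG, although the difference between these genes' falls was not tested.

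EPGN encodes epigen, a low-affinity EGFR ligand (ENSG00000182585, chromosome 4, 74308473 to 74315307, plus strand). It had 177, 137 and 220 counts in shRNH1 and 128, 118 and 128 counts in shControl, or 5.22, 3.90 and 6.67 CPM in shRNH1 and 3.29, 2.86 and 3.47 CPM in shControl. The shRNH1 libraries spread widely, and the lowest of them stood just above the highest shControl library. The log2 fold change came to 0.71 (SE 0.188; adjusted p = 0.00493 by edgeR's quasi-likelihood test), a 1.64-fold rise. The call rested on shRNH1 replicate 3, since without it the log2 fold change was 0.51 (adjusted p = 0.0684, same test). Without any other single library EPGN passed.

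BTC, which encodes betacellulin (ENSG00000174808, chromosome 4, 74744759 to 74794686, minus strand), was listed at 32, 22 and 19 counts in shRNH1 and 13, 19 and 9 counts in shControl. Normalised levels were 0.576 to 0.944 CPM in shRNH1 and 0.244 to 0.460 CPM in shControl, so the groups were apart at a very low level. The log2 fold change came to 1.03 (SE 0.429) and did not pass (adjusted p = 0.0757 by edgeR's quasi-likelihood test). Its 95% interval of the fold, 1.11 to 3.77, is not adjusted for the number of genes. EREG, which encodes epiregulin (ENSG00000124882, chromosome 4, 74365143 to 74388751, plus strand), had 0, 4 and 0 counts in shRNH1 and 5, 3 and 4 counts in shControl. With 4 counts in all against 12, the depth-corrected ratio was 0.383, with an exact interval of 0.0899 to 1.26 that covers counting error only, and no difference was detectable at this depth.

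**Figure D2:**
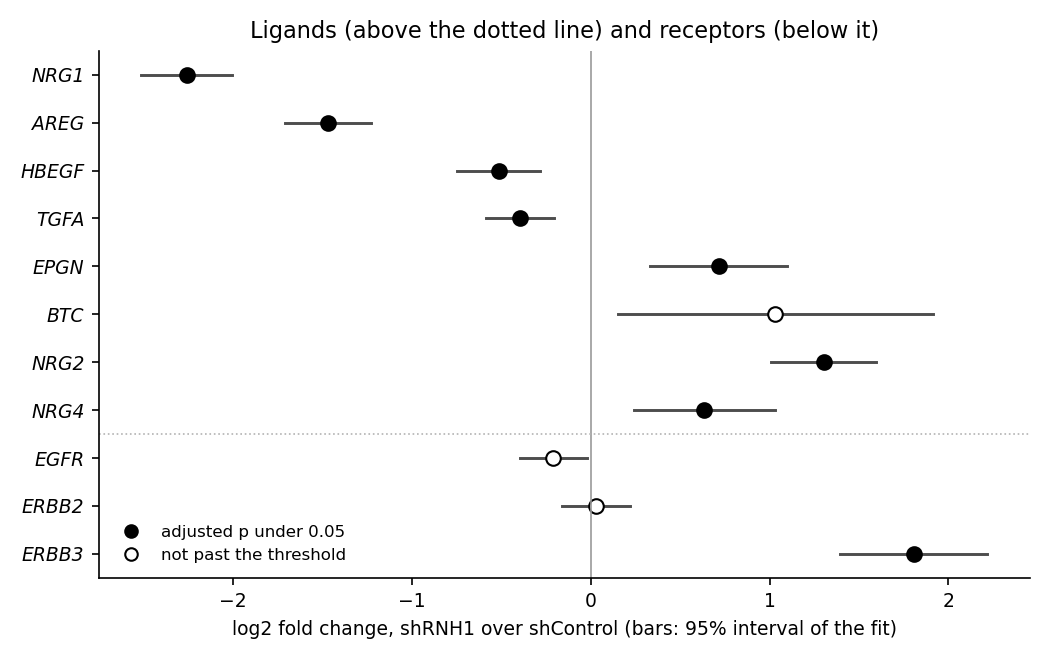
Log2 fold changes of shRNH1 over shControl with 95% intervals, ligand genes above the dotted line and receptor genes below it, filled where the adjusted p was under 0.05. NRG1 (-2.26) and ERBB3 (1.81) lie at opposite ends, and the interval of ERBB2 (0.03) spans 0.

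EPGN, EREG, AREG and BTC lie next to each other on chromosome 4, in a stretch of 486.2 kb in the GENCODE 29 annotation of GRCh38. EPGN is 49.8 kb from EREG, EREG 56.4 kb from AREG and AREG 289.7 kb from BTC. Within this stretch AREG fell, EPGN rose, BTC did not pass, and EREG was nearly silent in both groups. The antisense gene ENSG00000250532 between EREG and AREG was listed at 0 in all 6 libraries, and ENSG00000249942 between AREG and BTC at 0 to 11 counts in shRNH1 and 9 to 13 counts in shControl.

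The promoters of AREG and EPGN are shown because these neighbours were called in opposite directions. Each window runs from 250 bases before to 50 bases after the gene's start in RefSeq (GRCh38.p14), 5′ to 3′ on the plus strand, chr4:74444886-74445185 for AREG and chr4:74308220-74308519 for EPGN. Capitals mark the TATA box letters TATAAA and the cyclic AMP response element letters TGACGTCA, searched on both strands.
AREG promoter: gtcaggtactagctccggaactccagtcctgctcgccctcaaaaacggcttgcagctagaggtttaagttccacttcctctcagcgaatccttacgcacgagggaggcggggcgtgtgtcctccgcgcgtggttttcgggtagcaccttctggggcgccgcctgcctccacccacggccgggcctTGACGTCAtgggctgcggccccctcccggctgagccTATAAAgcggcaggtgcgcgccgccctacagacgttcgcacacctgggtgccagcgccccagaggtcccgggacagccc
EPGN promoter: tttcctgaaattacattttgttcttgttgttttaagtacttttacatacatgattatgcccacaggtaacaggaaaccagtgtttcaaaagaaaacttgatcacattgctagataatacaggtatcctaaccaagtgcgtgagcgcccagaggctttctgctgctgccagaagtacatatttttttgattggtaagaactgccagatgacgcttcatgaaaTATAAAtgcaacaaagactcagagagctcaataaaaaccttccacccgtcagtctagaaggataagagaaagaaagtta
Both windows hold TATAAA 29 bases before the start, as 11.5% of the 35116 RefSeq promoter windows hold it somewhere. EGFR, EREG and NRG4 have TATAAA in a window too, and CACGTG, the E-box letters, was in none of the 17 windows of the EGF and ERBB family (7.26% of all windows). The AREG window alone of these 17 holds TGACGTCA, 65 bases before the start, and 1.85% of all windows do. TGANTCA, a loose pattern for AP-1 in which N could be any base, occurred in the windows of EGF, EGFR and ERBB2 (7.71% of all windows). GGAATG, the letters of TEAD factors, occurred in those of EGF, EGFR, EREG and NRG4 (14% of all windows). The GC content was 66.3% in the AREG window and 37.7% in the EPGN window. Such matches describe the letters in these windows and not the binding of a factor. RefSeq windows were found for 8 of the 10 members, and NRG1 and ERBB3 were not among them.

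Among the receptors, ERBB3 encodes the neuregulin receptor with little kinase activity (ENSG00000065361, chromosome 12, 56076799 to 56103505, plus strand). It had 268, 187 and 164 counts in shRNH1 and 59, 78 and 66 counts in shControl, or 7.90, 5.33 and 4.97 CPM in shRNH1 and 1.52, 1.89 and 1.79 CPM in shControl. All 3 shRNH1 libraries were well above the shControl libraries, and shRNH1 replicate 1 was the highest. The log2 fold change came to 1.81 (SE 0.201; adjusted p = 1.07e-07 by edgeR's quasi-likelihood test), a 3.50-fold rise (95% interval 2.63 to 4.66). Without shRNH1 replicate 1 it was 1.57, and it passed without any single library.

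EGFR, the receptor for most of these ligands (ENSG00000146648, chromosome 7, 55019021 to 55211628, plus strand), had 7736, 8732 and 7945 counts in shRNH1 and 10685, 11157 and 10500 counts in shControl. Its level was 239 ± 10.4 CPM in shRNH1 and 276 ± 7.72 CPM in shControl (SD, n = 3 each). The groups did not overlap in CPM, but the log2 fold change of -0.21 (SE 0.0906) missed the threshold (adjusted p = 0.0901 by edgeR's quasi-likelihood test). DESeq2 called it (-0.23, adjusted p = 0.0212). In edgeR it was -0.10 with library size alone (adjusted p = 0.408) and -0.085 with an offset for expression level (adjusted p = 0.544). Its 95% interval of the fold, 0.760 to 0.985 in the main fit, is not adjusted for the number of genes. In TPM, which use no TMM factor, the groups overlapped, at 69.6, 80.4 and 76.7 TPM in shRNH1 and 78.2, 83.6 and 77.6 TPM in shControl. The opposite-strand gene EGFR-AS1 overlaps EGFR and had 77 to 101 counts in shRNH1 and 112 to 142 counts in shControl. The sources used here do not state whether the counting used strand, so reads of such pairs may be shared.

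ERBB2, the partner receptor with no ligand of its own (ENSG00000141736, chromosome 17, 39687914 to 39730426, plus strand), had 5617, 5231 and 5132 counts in shRNH1 and 5682, 6172 and 6089 counts in shControl. Its level was 157 ± 8.40 CPM in shRNH1 and 154 ± 10.3 CPM in shControl (SD, n = 3 each), and the groups overlapped. The log2 fold change came to 0.03 (SE 0.0919; adjusted p = 0.853 by edgeR's quasi-likelihood test). Its 95% interval of the fold, 0.896 to 1.16, is not adjusted for the number of genes. In TPM, by contrast, every shRNH1 library (61.3, 58.4 and 60.1 TPM) lay above every shControl library (50.5, 56.1 and 54.6 TPM), so the placing of the groups depends on the scale. The sign of the fitted change turned without shRNH1 replicate 1 or without shControl replicate 1. PGAP3 and MIEN1, on the opposite strand, overlap the ends of ERBB2 in the annotation.

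To compare levels between genes, counts were divided by the exon length of each gene and scaled to TPM, a scale on which every library has the same sum over genes. In shRNH1 the order of the members was EGFR (75.6 ± 5.46 TPM), ERBB2 (59.9 ± 1.47), TGFA (37.6 ± 2.10), AREG (26.4 ± 3.75), HBEGF (13.5 ± 0.604), EPGN (11.5 ± 3.00), NRG1 (2.68 ± 0.204), ERBB3 (2.64 ± 0.616), BTC (0.999 ± 0.248) and EREG (0.0269 ± 0.0466) (SD, n = 3). In shControl it was EGFR (79.8 ± 3.33 TPM), AREG (66.8 ± 6.99), ERBB2 (53.7 ± 2.93), TGFA (45.4 ± 3.14), HBEGF (17.7 ± 1.99), NRG1 (11.7 ± 1.39), EPGN (6.37 ± 0.229), ERBB3 (0.695 ± 0.107), BTC (0.451 ± 0.171) and EREG (0.0647 ± 0.0155) (SD, n = 3). AREG thus stood behind TGFA in shRNH1 and ahead of it in shControl. HBEGF and EPGN in shRNH1, NRG1 and ERBB3 in shRNH1, and ERBB3 and BTC in shControl lay within about their summed SDs of each other. The order depends on the length used. Per longest transcript ERBB2 came first in both groups (92.6 ± 2.16 TPM in shRNH1 and 83.5 ± 4.15 TPM in shControl), and per coding length TGFA came first in both groups (126 ± 5.93 TPM in shRNH1 and 156 ± 9.49 TPM in shControl).

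The TPM of the 7 ligand genes summed to 87.7, 89.2 and 101 in shRNH1 and 140.1, 156 and 149 in shControl. TGFA made up 40.7% ± 1.78 of this sum in shRNH1 and 30.6% ± 2.76 in shControl (SD, n = 3 each). AREG made up 28.5% ± 2.60 in shRNH1 and 44.9% ± 2.76 in shControl. NRG1 made up 2.90% ± 0.0387 in shRNH1 and 7.90% ± 0.971 in shControl, and EPGN 12.3% ± 2.38 in shRNH1 and 4.30% ± 0.361 in shControl. The most abundant ligand mRNA per exon length was therefore TGFA in every shRNH1 library and AREG in every shControl library. Per coding length the shares were far from these, with TGFA ahead in both groups at 67.2% in shRNH1 and 59.4% in shControl, and AREG at 9.49% in shRNH1 and 17.6% in shControl. The share of AREG was lower and that of TGFA higher in shRNH1 with either length. The 3 receptor genes summed to 134, 141 and 139 TPM in shRNH1 and 129, 141 and 133 TPM in shControl, with overlap. ERBB3 made up 1.92% ± 0.497 of that sum in shRNH1 and 0.516% ± 0.0570 in shControl. Ligand TPM over receptor TPM was 0.671 ± 0.0502 in shRNH1 and 1.11 ± 0.0195 in shControl (SD, n = 3 each), and per coding length 1.30 in shRNH1 and 1.80 in shControl. These sums describe mRNA and were not tested.

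**Figure D3:**
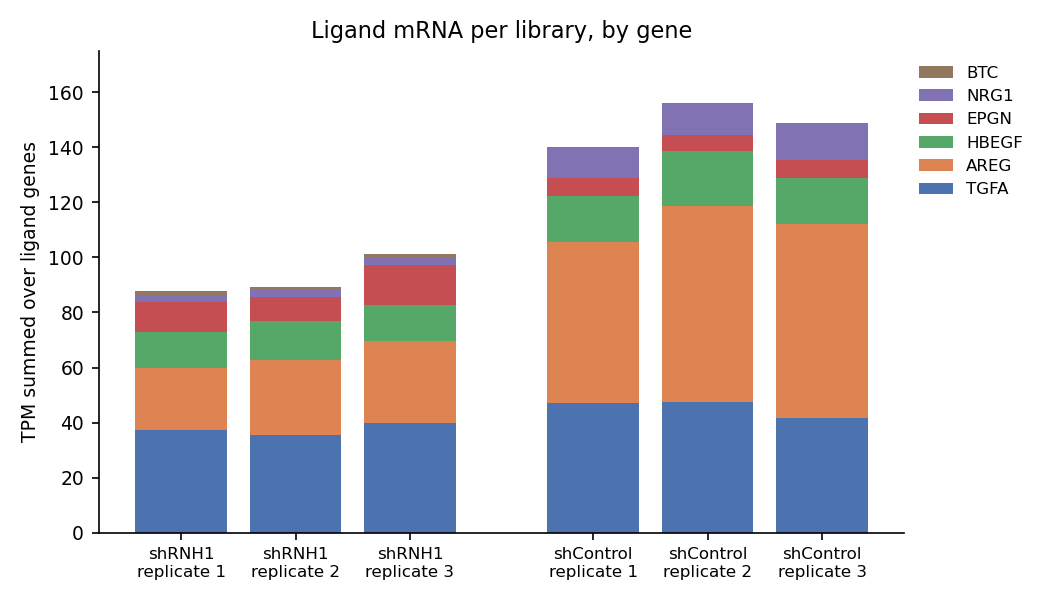
TPM summed over the ligand genes in each library, shRNH1 left and shControl right, with each gene as a segment (EREG is too low to be seen). The AREG and NRG1 segments are smaller in the 3 shRNH1 libraries, and the EPGN segment is larger.

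The other 5 genes of the family are NRG2, NRG4, EGF, NRG3 and ERBB4, and only NRG2 and NRG4 passed the filter on low counts. NRG2, a neuregulin relative (ENSG00000158458, chromosome 5, 139846779 to 140043299, minus strand), had 354, 372 and 358 counts in shRNH1 and 170, 148 and 184 counts in shControl. Its log2 fold change came to 1.30 (SE 0.143; adjusted p = 8.62e-08 by edgeR's quasi-likelihood test), a 2.47-fold rise with no overlap, so that it moved opposite to NRG1. NRG2 had 9.29 ± 0.407 TPM in shRNH1 and 3.43 ± 0.347 TPM in shControl, and NRG1 2.68 ± 0.204 TPM in shRNH1 and 11.7 ± 1.39 TPM in shControl (SD, n = 3 each). NRG2 therefore exceeded NRG1 per exon length in shRNH1, and NRG1 exceeded NRG2 in shControl. Per coding length the means were 5.49 TPM for NRG2 and 4.78 TPM for NRG1 in shRNH1, against 2.08 TPM for NRG2 and 21.4 TPM for NRG1 in shControl.

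NRG4, an ERBB4 ligand (ENSG00000169752, chromosome 15, 75935969 to 76059795, minus strand), had 205, 128 and 206 counts in shRNH1 and 132, 120 and 146 counts in shControl, and the groups overlapped in CPM. Its log2 fold change of 0.64 passed (adjusted p = 0.0143 by edgeR's quasi-likelihood test), but not without shRNH1 replicate 1 (0.53, adjusted p = 0.114), shRNH1 replicate 3 (0.50, adjusted p = 0.0804) or shControl replicate 2 (0.52, adjusted p = 0.0674). FBXO22, on the opposite strand, overlaps NRG4 in the annotation and had 839 to 924 counts in shRNH1 and 921 to 1108 counts in shControl.

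EGF itself had 8, 13 and 21 counts in shRNH1 and 3, 2 and 3 counts in shControl, too few for the filter. The sums of 42 and 8 counts gave a ratio of 6.03 (exact interval 2.80 to 14.9, counting error only). Without the filter edgeR called EGF (log2 fold change 2.53, adjusted p = 0.00488), as did DESeq2 (2.57, adjusted p = 0.0155). In edgeR the p-values without the filter are not comparable with those of the main fit. For NRG1 the adjusted p was 1.81e-75 without the filter and 2.01e-13 with it, at nearly the same fold change. ERBB4, the remaining neuregulin receptor, had 4, 5 and 5 counts in shRNH1 and 1, 5 and 5 counts in shControl, with a ratio of 1.46 (exact interval 0.616 to 3.56, counting error only). NRG3 was listed at 0 in all 6 libraries, which allows up to 3 counts per group, or 0.0294 CPM in shRNH1 and 0.0256 CPM in shControl.

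**Figure D4:**
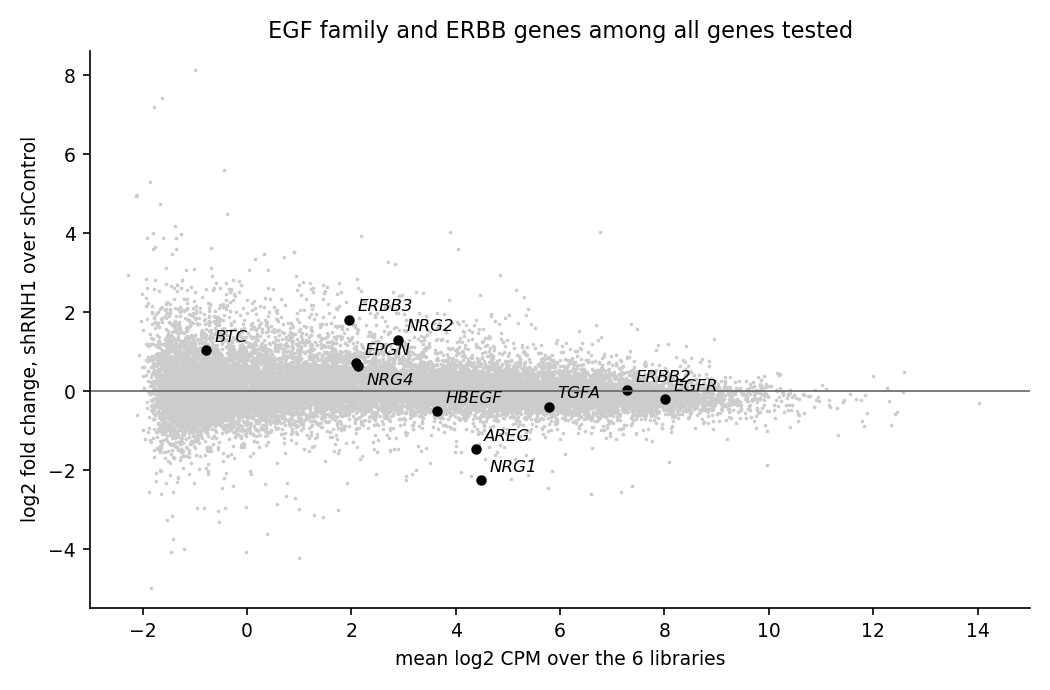
Mean log2 CPM against log2 fold change of shRNH1 over shControl, with 1 grey point for each of the 19682 genes tested and black points for the 9 tested members, NRG2 and NRG4. NRG1 and AREG lie at the lower edge of the cloud, ERBB3 and NRG2 towards the upper edge, and ERBB2 and EGFR within it at high expression.

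The pathway lists that follow were also chosen with earlier results known, so their counts are a description. Of 16 tested genes of ligand shedding and trafficking, 4 rose and 2 fell (37.5%, against 27.6% of all genes tested), and the median log2 fold change was -0.016, against 0.016 over all genes. ADAM8, a metalloprotease of the cell surface, fell to 34.3 ± 5.09 CPM in shRNH1, against 103 ± 10.6 CPM in shControl (log2 fold change -1.59, adjusted p = 1.71e-11). PCSK5, a proprotein convertase, rose to 18.7 ± 1.39 CPM in shRNH1, against 6.18 ± 0.696 CPM in shControl (1.60, adjusted p = 1.47e-10; SD, n = 3 each; edgeR's quasi-likelihood test for both). FRMD8, whose product stabilises the iRhom and ADAM17 sheddase complex, fell (-0.43), and BACE1, a protease that also cleaves neuregulin 1, rose (0.42). ADAM17 and ADAM10, the main sheddases of EGFR ligands, were added for their role and not by the naming rule. ADAM17 had a log2 fold change of -0.25 and did not pass (adjusted p = 0.0576 by edgeR's quasi-likelihood test), although it did with DESeq2's size factors in edgeR, with the stricter filter and by DESeq2. ADAM10 passed (0.33, adjusted p = 0.0146, same test), but not without shRNH1 replicate 1 or 3 or shControl replicate 2 or 3.

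Of 22 tested genes that inhibit ERBB receptors or take part in their turnover, 2 rose and 3 fell (22.7%, below the 27.6% of all genes), with a median of -0.003. The receptor phosphatase gene PTPRK (0.55) and the ubiquitin ligase gene CBLB (0.55) rose. The phosphatase genes PTPN1 (-0.43) and PTPN2 (-0.52), whose products dephosphorylate EGFR among other receptors, fell. The feedback inhibitor gene ERRFI1, named for its role and not by the rule, measured 40.5 ± 0.995 CPM in shRNH1 and 38.3 ± 1.13 CPM in shControl (SD, n = 3 each), and did not pass (log2 fold change 0.08, adjusted p = 0.565 by edgeR's quasi-likelihood test).

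Of 15 tested surface partners of the receptors, 3 rose and 7 fell (66.7%, against 27.6% of all genes), with a median of -0.20. The receptor kinase gene AXL (-0.64), the integrin genes ITGB4 (-0.57) and ITGA6 (-0.42) and the tetraspanin gene CD151 (-0.44) had the smallest p, and ITGB4 is also among the squamous and basal markers. AXL measured 357 ± 16.8 CPM in shRNH1 and 557 ± 31.5 CPM in shControl (SD, n = 3 each). Of the list, 6 members passed without shControl replicate 1, against 10 with all libraries.

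Of 34 tested adaptor and kinase relay genes, 9 rose and 2 fell (32.4%, near the 27.6% of all genes), with a median of 0.045. PIK3R3, a regulatory subunit of PI3 kinase, rose to 24.6 ± 0.776 CPM in shRNH1, against 11.6 ± 1.20 CPM in shControl (log2 fold change 1.09, adjusted p = 1.89e-08). MAPK3, which encodes the kinase ERK1, rose to 200.2 ± 6.81 CPM in shRNH1, against 112 ± 6.94 CPM in shControl (0.84, adjusted p = 7.16e-08; SD, n = 3 each; edgeR's quasi-likelihood test for both). STAT5B (0.56) rose and HRAS (-0.52) fell.

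The list of genes whose transcription can follow ERK activity had 13 members lower and 2 higher of 19 tested. These calls made up 78.9%, against 27.6% of all genes, and the median log2 fold change was -0.48. ERK activity itself was not measured in these data. FOSL1, which encodes the AP-1 subunit FRA1, measured 52.6 ± 4.15 CPM in shRNH1 and 143 ± 16.5 CPM in shControl, and EPHA2, an ephrin receptor gene, 356 ± 23.2 CPM in shRNH1 and 822 ± 66.8 CPM in shControl (SD, n = 3 each). Both fell, FOSL1 by 1.44 on the log2 scale (adjusted p = 2.34e-11) and EPHA2 by 1.21 (adjusted p = 5.33e-10; edgeR's quasi-likelihood test). The cyclin D1 gene CCND1 (log2 fold change -1.04) and the feedback inhibitor gene SPRY4 (-0.96) fell too. FOS (0.55) and ETV1 (0.48) were the 2 that rose, named after their values were seen.

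**Figure D5:**
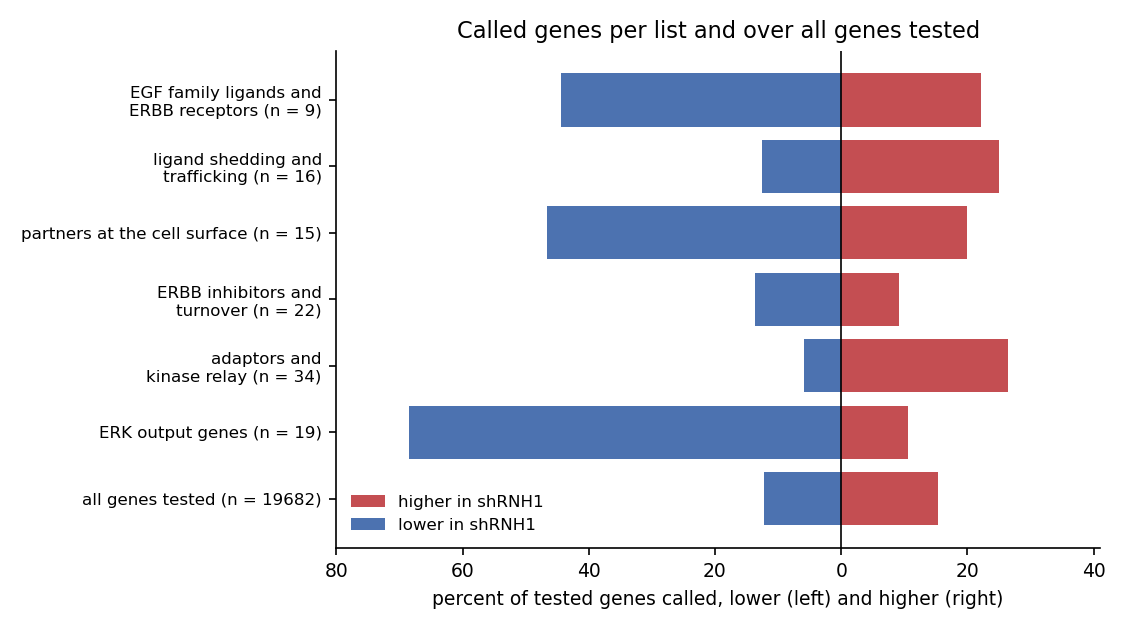
Percent of tested genes called lower (left, blue) and higher (right, red) in shRNH1 for the members, for 5 pathway lists and for all 19682 genes tested. The ERK output list extends farthest to the left, and the inhibitor list lies close to all genes tested.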

How the data were processed

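Poly(A) RNA of KYSE510 cells was sequenced in 3 shRNH1 and 3 shControl libraries. The deposited values are raw counts per Ensembl gene, whole numbers with no normalisation by the authors. The submitters' processing notes name GRCh38, HISAT2, StringTie and DESeq2. The sources used here do not give the counter, the annotation release or the strand setting, so overlapping genes on either strand may share reads. All 62700 IDs were in the gene name table, 0 columns were unmatched, and positions and lengths came from GENCODE 29, which holds 58207 of the IDs.

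Differences were tested with edgeR's quasi-likelihood test (edgeR 4.0.16, R 4.3.3) with TMM, filterByExpr and Benjamini-Hochberg adjustment over all 19682 genes tested at 0.05; standard errors come from the F statistic. In a simulated data set of 19115 genes, 100 genes were changed 1.5-fold and 100 were changed 2-fold. The test recovered 59% of the 1.5-fold changes and 80% of the 2-fold changes, and 4.14% of its calls were false. Far fewer genes were changed there than the 27.6% called in these data, and the adjusted threshold depends on that share. These rates therefore do not carry over to these data. A gene that did not pass may still differ. CPM use TMM, and TPM use the summed exon length. Alternatives were other size factors, DESeq2 1.42.0, limma-voom (limma 3.58.1), other filters, a replicate block, an offset for expression level (spline of 5 degrees of freedom, MASS 7.3.60.0.1), other lengths and each library left out. Cultures are called biological replicates with no further detail, so p-values reflect only the spread among these libraries, which may be technical. Every replicate pair differed by more than sampling noise (chi-square per gene of 6.47 to 21.1). Intervals and floors of counts cover counting error only.

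Members were selected by symbol with no threshold on a value, and both they and the lists were chosen with earlier results of these data known. Named by rule are all members, the other 5 family genes, per pathway list up to 4 called genes with the smallest p, and RNASEH1. Pathway list genes outside this rule are marked in the text. RNH1, the cell type markers and the neighbouring or overlapping genes were also named outside it.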

Additional observations from a re-analysis of the deposited data

How the results depend on the processing

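The falls of NRG1, AREG, HBEGF and TGFA and the rise of ERBB3 passed under every alternative run, and 4 members were called lower in each except DESeq2, which called 5. Leaving out single libraries, 1 to 2 members were called higher and 4 lower, 1 to 3 of the other family genes were called, 6 to 8 surface partners, and 4150 to 5210 genes in all (5424 with all libraries). With the expression level offset 1 of the other family genes passed, NRG4 being lost (0.48, adjusted p = 0.0669, edgeR's quasi-likelihood test). ERBB2 turned sign without shRNH1 replicate 1 (-0.011) and without shControl replicate 1 (-0.007), ranged from -0.011 to 0.088 over single libraries left out, and its p missed the threshold throughout. Over the named genes, 474 gene values under an alternative kept direction and side of the threshold, 9 lost the call, 4 gained it and 2 turned sign; the cause was not tested. The ligand sum was 187.5 TPM in shRNH1 and 262 TPM in shControl per coding length. The receptor sum was 166.6 TPM in shRNH1 and 159.8 TPM in shControl per longest transcript, and 144.9 TPM in shRNH1 and 145.9 TPM in shControl per coding length; these differ by construction. Library size alone moved the median of all genes to 0.127, so its values are to be read against that shift.

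Same-numbered libraries did not deviate together (r = 0.049, 0.005 and -0.215 across genes), so the numbers were not taken to pair them. Some differently numbered libraries were more strongly related. The extremes were 0.273 for shRNH1 replicate 3 with shControl replicate 1 and -0.269 for shRNH1 replicate 2 with shControl replicate 1. The cause of this shared deviation was not tested. With the replicate block 5094 genes were called, 2 members higher and 4 lower. Depth limits EREG, EGF, ERBB4 and BTC.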
